A study of Zea mays with 9 samples.

Results

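The maize miRNA families that respond to nutrients or stress, or that trigger phased secondary siRNAs, were examined in the shoot apex. They are miR393, miR395, miR397, miR398, miR399, miR408, miR482, miR528, miR827, miR1432, miR2118 and miR2275. Members were chosen by family number alone, which gave 34 of the 141 miRNA precursor models among the 45498 rows of the count table, and 29 of the 76 distinct mature sequences. RNA-seq covered 4 groups of 2 libraries each from 14-d-old seedlings, namely *dcl1-2* central zone of the shoot apical meristem (CZ), wild-type CZ, *dcl1-2* leaf primordium at plastochron P3 and wild-type P3. The *dcl1-2* allele of *DICER-LIKE1*, whose product cuts miRNAs out of their precursors, had been introgressed into B73, the background of every library. Both tissues were laser-microdissected from sibling seedlings and pooled over several apices per library, and the RNA was linearly amplified. One further library held small RNA of whole wild-type B73 apices, so mature miRNAs were counted without a replicate and in a tissue that is wider than the CZ and P3.

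These families are known mainly from contexts other than the vegetative apex. In plants, miR395 is induced by sulfate shortage and miR399 and miR827 by phosphate shortage, while miR397, miR398, miR408 and, in monocots, miR528 follow the supply of copper, and miR393 acts on auxin receptors. In grasses, miR2118 and miR2275 direct cleavage of long noncoding transcripts in anthers, which starts the production of phased siRNAs (phasiRNAs), and miR482 belongs to the same superfamily as miR2118.

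The mature sequences that reached 10 reads in the apex are given as DNA letters 5′ to 3′, with the seed (bases 2 to 8) in capitals, because it is the seed that sorts them into groups within a family.
miR827: tTAGATGAccatcagcaaaca
miR398a,b: tGTGTTCTcaggtcgcccccg
miR399e,i,j: tGCCAAAGgagagttgccctg
miR399b: tGCCAAAGgagagctgtcctg
miR399f: tGCCAAAGgaaatttgccccg
miR2118b: tTCCCGATgcctcccattccta
miR2118d: tTCCTGATgcctcccatgccta
miR2118c: tTCCTAATgcctcccattccta
miR408: cTGCACTGcctcttccctggc
miR2275b: aGGATTAGaggcaactgaacc
miR393a,b,c: tCCAAAGGgatcgcattgatc
miR528a,b: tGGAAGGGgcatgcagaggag
miR397b: tTGAGCGCagcgttgatgagc

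The 29 sequences held 16 seeds. All 6 miR399 sequences shared 1 seed, as did all 4 miR395 sequences, and differed from each other only outside it. The 7 miR2118 sequences carried 4 seeds and the 4 miR2275 sequences 2. Some sequences that stayed below 10 reads are given for comparison, since miR2275a and miR2275d carry another seed than the detected member of their family and the commonest miR395 sequence stands for a family that gave no read.
miR2275a: aGAGTTGGaggaaagcaaacc
miR2275d: aGAGTTGGaggaaagaaaact
miR395a,b,d,e,f,g,h,i,j,n,p: gTGAAGTGtttgggggaactc

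Counting from the 5′ end, miR2118c differs from miR2118b by C5T and G6A, both within the seed. miR2275a differs from miR2275b at 7 positions, of which G3A, A4G and A7G fall in the seed.

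Library totals ran from 8626824 to 10328582 counts in P3 and from 24753974 to 30327603 counts in the CZ. In RPM, the count per 1000000 counts of its library, a single count was worth 0.0968 to 0.116 in P3 and 0.0330 to 0.0404 in the CZ. *DCL1* (GRMZM2G040762) stood at 84.0 and 91.7 RPM in *dcl1-2* CZ against 65.4 and 62.2 RPM in wild-type CZ, and at 141 and 136 RPM in *dcl1-2* P3 against 73.2 and 101 RPM in wild-type P3. Its transcript was called higher in *dcl1-2* P3 (log2 fold change 0.74 ± 0.16 SE, edgeR adjusted p = 0.0114) and not in the CZ (0.43, adjusted p = 0.272). The difference between the tissues in this effect was 0.32 ± 0.21 (P3 minus CZ, edgeR adjusted p = 0.49) and was not called. Without *dcl1-2* P3 replicate 1 or 2 the adjusted p in P3 was 0.0501 or 0.0522. Transcript level does not show the lesion, so it does not check the genotype labels. The tissue labels were borne out by markers, because the summed level of 4 meristem KNOX genes was 28.4 to 38.1 RPM in P3 libraries against 1150.0 to 1400.0 RPM in CZ libraries, and that of 4 leaf YABBY genes 718.0 to 997.0 RPM against 12.4 to 30.3 RPM. Of 4 vascular and ground tissue markers, the sucrose transporter gene *sut1* had 1 count in all, and the summed level of the list was 203.0 to 472.0 RPM in P3 libraries against 78.2 to 122.0 RPM in CZ libraries. Most of that sum was *scr1*, while *scr1b* (GRMZM2G015080) of the same list was lower in wild-type P3 than in wild-type CZ (-1.27 ± 0.29, adjusted p = 0.00209). In these bulk samples, fewer cells of a type and less RNA per cell cannot be told apart.

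Most of these loci were silent in both tissues. No count fell on 27 of the 34 precursor models (79.4%) in any of the 8 libraries, 5 models had counts but stayed below 1 RPM in every group, and only *MIR2118c* and *MIR827* reached a group mean of 1 RPM. A count of 0 allows up to 3 counts per library, equal to 0.291 to 0.348 RPM in P3 libraries and 0.0989 to 0.121 RPM in CZ libraries. Silence here therefore means a level of countable reads under that limit, not the absence of a transcript. Reads without a unique position were not counted, and reads shared with an overlapping gene may have been left out. For loci with such reads the limit may not hold. Together the 34 models took 34 to 50 counts per library, or 0.0887% to 0.422% of the counts on all miRNA precursors. In P3 the share was 0.123% and 0.0887% in *dcl1-2* against 0.422% and 0.377% in wild type. All precursors together had 38276 and 40594 counts in *dcl1-2* P3 against 11838 and 9550 in wild-type P3. In the CZ the share was 0.261% and 0.196% in *dcl1-2* against 0.325% and 0.402% in wild type.

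Silence covered 6 whole families with 19 loci. They are miR399 with 10 loci, miR395 with 4, miR528 with 2, and miR397, miR482 and miR1432 with 1 each. All 4 miR395 models, which hold every member of the family of sulfate-responsive miRNAs in polycistronic clusters, had no count, among them a pair on chromosome 2 that lie 9.2 kb apart. The 3 closest pairs of miR399 loci, *MIR399a* and *MIR399g* on chromosome 4 with 0.877 kb between them, *MIR399c* and *MIR399f* on chromosome 6 with 7.47 kb and *MIR399h* and *MIR399i* on chromosome 5 with 8.65 kb, were likewise without a count on either side. The miR2118 cluster on chromosome 10 behaved differently, since *MIR2118c* had 178 counts over the 8 libraries while *MIR2118a*, 23.0 kb from it, and *MIR2118e*, 49.8 kb from *MIR2118a*, had 0. On chromosome 2, *MIR2118b* had 15 counts, all in P3, and *MIR2118g*, 65.6 kb away, had 0.

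**Figure D1:**
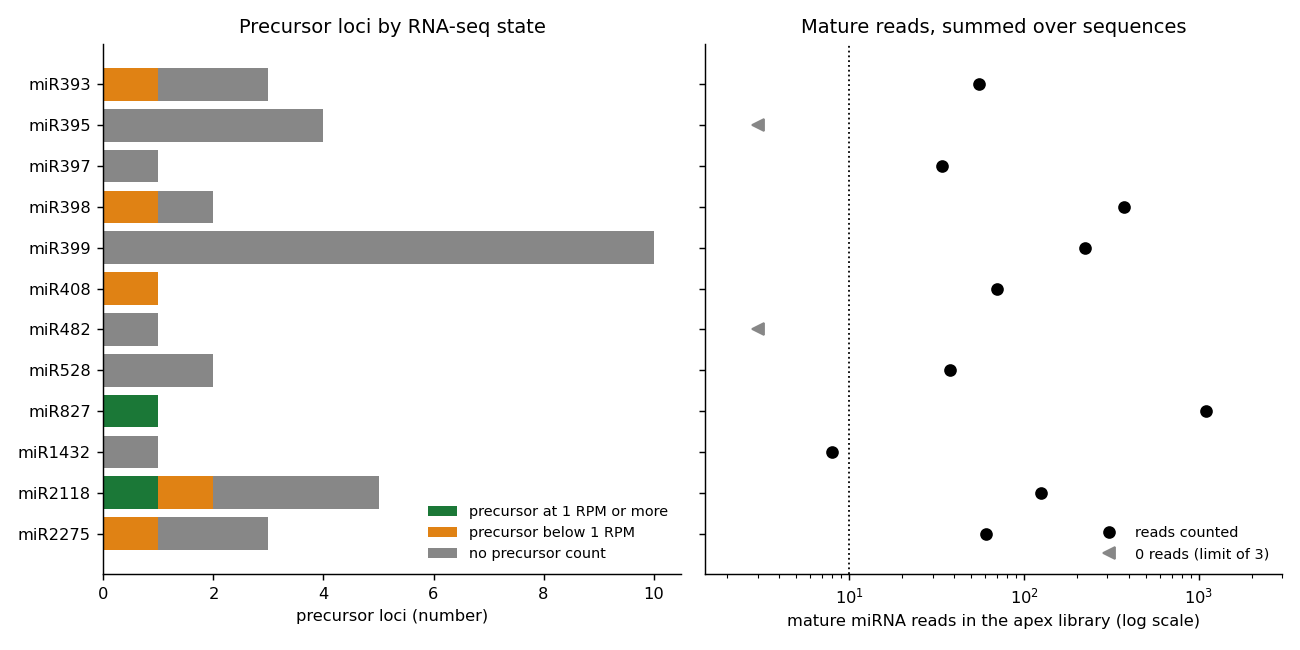
Precursor loci and mature reads of the 12 families. Left, the number of precursor loci per family by RNA-seq state (bars, coloured by whether a locus reached 1 RPM, stayed below it or had no count), and right, the mature reads of each family in the apex library on a log axis, with arrowheads for 0 reads at the limit of 3 and a dotted line at 10. All 10 miR399 loci had no count beside 224 mature reads, whereas miR395 and miR482 had neither counts nor reads. The miR398 and miR399 reads are those deposited, and the study lists far lower values elsewhere for miR398a,b and miR399e,i,j.

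Silent loci made up a larger share here than among the other families. Of the 34 precursors, 27 (79.4%) had no count, 5 (14.7%) stayed below 1 RPM and 2 (5.88%) reached it, against 53 (49.5%), 21 (19.6%) and 33 (30.8%) of the 107 precursors of other families. This is a description of the loci, with no test. The models also differed in length, with a median of 572 nt for the 34 and 1104 nt for the others. Within the silent models the medians were 407 nt and 746 nt. The authors drew a model from transcript reads where they had them and otherwise extended the hairpin by a fixed margin, so a short model is itself a mark of a locus without earlier transcript evidence, and its part in the difference was not tested.

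**Figure D2:**
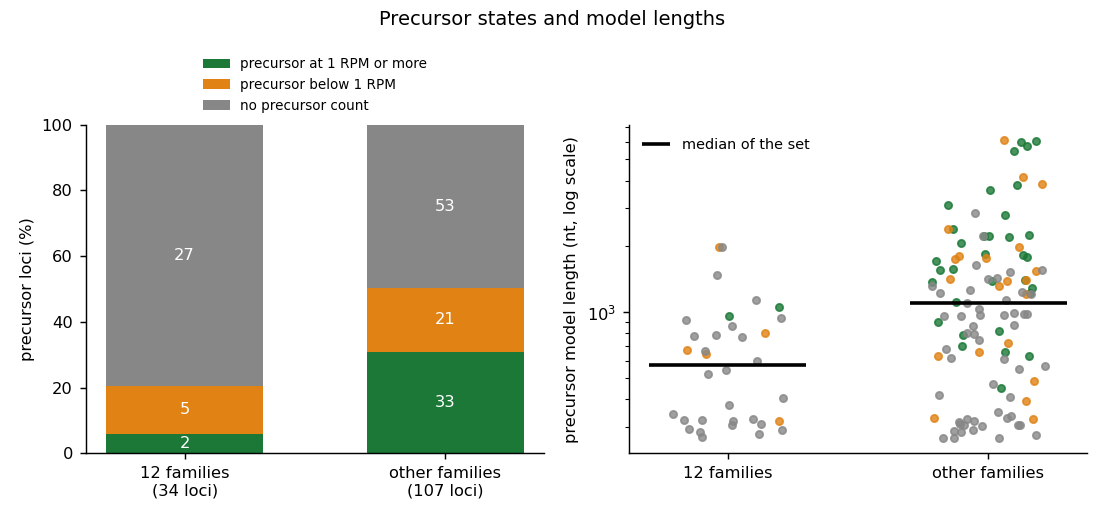
Precursor states and model lengths in the 12 families and in the other families. Left, the percentage of loci in each state, with the number of loci printed in each bar, and right, the length of each precursor model on a log axis (points, with the same colours) with the median of each set as a line. Loci without a count made up 79.4% of the 12 families and 49.5% of the others.

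*MIR2118c* was the one member with counts in all 8 libraries. Its model lies on the minus strand of chromosome 10, at 117751921 to 117752879 in the count table, and overlaps no other gene model. In the CZ it had 41 and 24 counts in *dcl1-2* (1.30 ± 0.50 RPM, SD, n = 2) against 21 and 23 counts in wild type (0.78 ± 0.12 RPM). In P3 it had 16 and 17 counts in *dcl1-2* (1.70 ± 0.08 RPM) against 18 and 18 counts in wild type (1.97 ± 0.16 RPM). By RPM, both *dcl1-2* libraries lay above both wild-type libraries in the CZ, as 22.8% of all genes tested there did, and below both in P3, as 29.2% did.

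*MIR827* had counts in P3 only. This precursor, whose miRNA is induced by phosphate shortage, had 19 and 19 counts in *dcl1-2* P3 (1.97 ± 0.18 RPM, SD, n = 2) against 25 and 9 counts in wild-type P3 (1.82 ± 1.09 RPM), and 0 counts in each of the 4 CZ libraries. The wild-type P3 values lie on either side of both *dcl1-2* values. Per kilobase of model, the *dcl1-2* P3 level of *MIR827* was 1.86 RPKM and that of *MIR2118c* 1.78 RPKM, and in wild-type P3 the levels were 1.71 and 2.06 RPKM. The model lies on the minus strand of chromosome 5, at 167347422 to 167348480, and shares 965 of its 1059 nt with the gene model GRMZM2G044788 on the same strand, which had 16 and 17 counts in *dcl1-2* P3, 25 and 9 in wild-type P3 and 0 in the CZ. The 2 rows therefore largely describe the same reads.

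**Figure D3:**
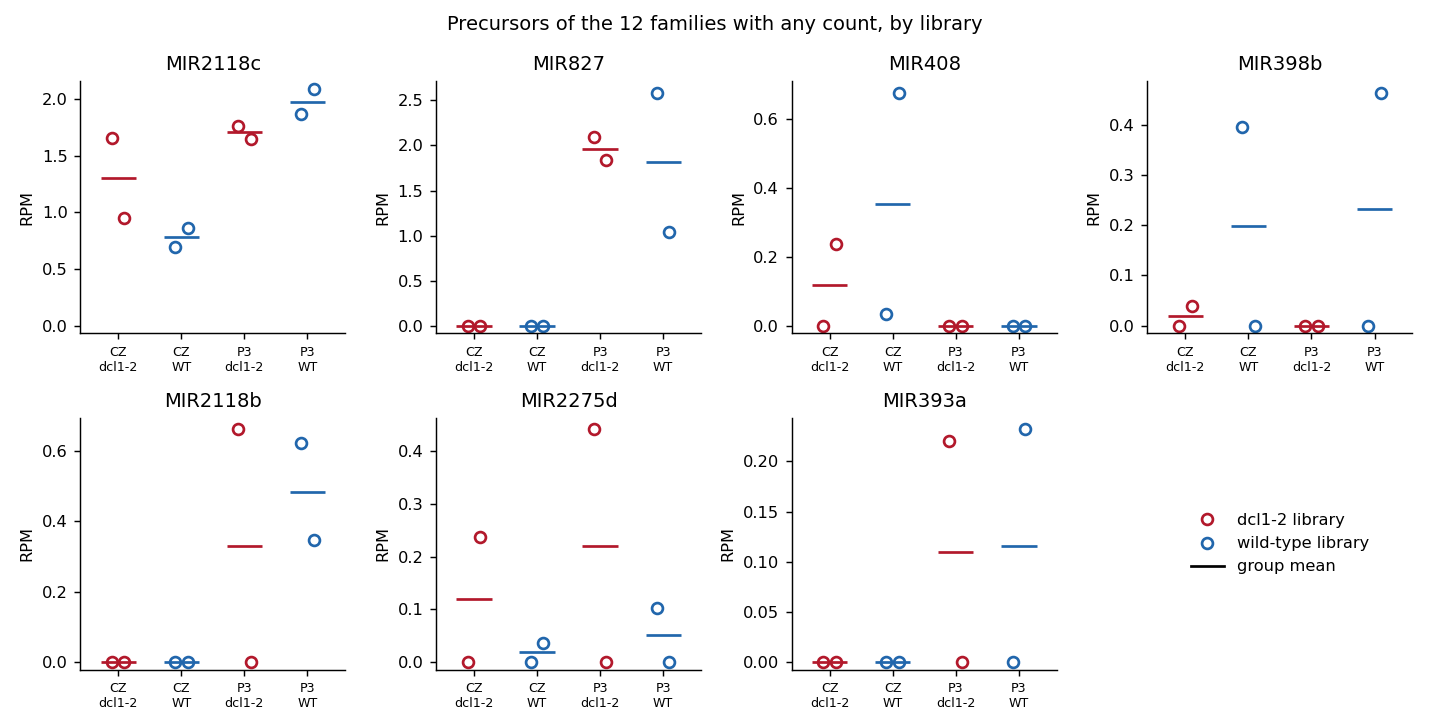
The 7 precursors with any count. Each panel shows RPM per library (open circles, 2 per group) and the group mean (line) for *dcl1-2* and wild type in the CZ and in P3, and each vertical axis has its own scale. *MIR2118c* has counts in every library, *MIR827* and *MIR2118b* only in P3, and *MIR408* only in the CZ.

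The remaining 5 precursors with counts stayed below 1 RPM in every group. *MIR408*, the precursor of a copper-responsive miRNA, had 0 and 6 counts in *dcl1-2* CZ against 1 and 18 in wild-type CZ, and 0 in all P3 libraries. *MIR398b* had 0 and 1 counts in *dcl1-2* CZ against 12 and 0 in wild-type CZ, and 0 and 0 counts in *dcl1-2* P3 against 0 and 4 in wild-type P3. A single library thus supplied 18 of the 25 counts of *MIR408* and 12 of the 17 of *MIR398b*.

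*MIR2118b*, one of the phasiRNA triggers, had 6 and 0 counts in *dcl1-2* P3 against 6 and 3 in wild-type P3 and none in the CZ. *MIR2275d* had 0 and 6 counts in *dcl1-2* CZ against 0 and 1 in wild-type CZ, and 4 and 0 in *dcl1-2* P3 against 1 and 0 in wild-type P3. *MIR393a* had 2 and 0 counts in *dcl1-2* P3 against 0 and 2 in wild-type P3 and none in the CZ. For all 3 the *dcl1-2* and wild-type values overlapped in each tissue where counts were found.

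Overlap with annotated genes limits what some of these rows measure. In all, 10 of the 34 models overlap another gene model. *MIR408* shares 804 of its 808 nt with GRMZM2G097141 and *MIR398b* all of its 1983 nt with GRMZM2G068519, both on the same strand, and in both cases the 2 rows hold identical counts in every library. *MIR2275d* lies entirely within GRMZM2G169694 on the same strand, which had 956 to 5571 counts per library, so that its 12 counts cannot be told apart from reads of that gene. *MIR399g* lies entirely within GRMZM2G018770 on the same strand, which had 1749 to 4404 counts per library, and *MIR399f* shares 66 nt with GRMZM2G029546 on the opposite strand, which had 9 to 204. Whether reads of these 2 silent precursors were left out for the overlap was not tested. The other 4 overlapping models, GRMZM2G136023, GRMZM2G087525, GRMZM5G824689 and GRMZM2G070591, which lie over *MIR2118g*, *MIR2275c*, *MIR398a* and *MIR399d*, had no count themselves.

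Mature sequences passed their minimum more often than precursors passed theirs, but the minima are unlike. Mature miRNAs needed 10 reads and precursors 1 RPM, and miR2118c with 13 reads stood at 0.13 RPM. At 1 RPM only miR827 (10.7 RPM), miR398a,b (3.6) and miR399e,i,j (1.8) would pass among the mature sequences. Of the 29 mature sequences, 13 (44.8%) from 9 families reached 10 reads, 4 had 2 to 8 reads and 12 had none. Among the 47 sequences of the other families, 28 (59.6%) reached 10 reads. The 12 families nevertheless supplied only 2085 of the 2414776 mature miRNA reads, or 0.0863% (95% Wilson interval 0.0827% to 0.0901%). Intervals on reads cover counting error only, because PCR copies were not removed and there is 1 library.

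miR827 was the most abundant of them, with 1099 reads (95% exact Poisson interval 1030.0 to 1170.0), or 10.7 RPM of mapped small RNA reads, and ranked 13 among the 76 mature sequences. miR398a,b, which acts on Cu/Zn superoxide dismutases, followed with 371 reads (334 to 411) and miR399e,i,j, of the phosphate response, with 185 (159 to 214). The interval of miR827 lies above those of all the others. Next in the table, miR2118b had 80 reads (63.4 to 99.6), miR408 70 (54.6 to 88.4), miR2275b 59 (44.9 to 76.1) and miR393a,b,c 55 (41.4 to 71.6), and neighbours in this order do not differ beyond counting error. Then came miR528a,b with 38 reads, miR397b with 34, miR2118d with 26, miR399b with 18, and miR2118c and miR399f with 13 each. The reads of miR398a,b and miR399e,i,j are those of the deposited table. The study lists far lower values for both elsewhere, low enough to change their places in this order. Neither their level nor their rank is therefore settled, nor is any sum or share of reads that includes them.

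Reads of sequences that several loci encode cannot be assigned to one of them. This holds for miR398a,b with 2 loci, miR399e,i,j with 3, miR393a,b,c with 3 and miR528a,b with 2.

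For 11 of the 13 detected mature miRNAs, no precursor reached 1 RPM in any group, the exceptions being miR827 and miR2118c. This count depends on the unlike minima of 10 reads and 1 RPM. The precursors of 6 of the 11 had no count in any library. These were miR399e,i,j, miR2275b, miR528a,b, miR397b, miR399b and miR399f. The other 5, miR398a,b, miR2118b, miR408, miR393a,b,c and miR2118d, had 4 to 25 precursor counts over all 8 libraries. Counted by locus, 12 of the 27 silent precursors encode a sequence with at least 10 reads, 5 a sequence with fewer, and 10 a sequence with none.

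**Figure D4:**
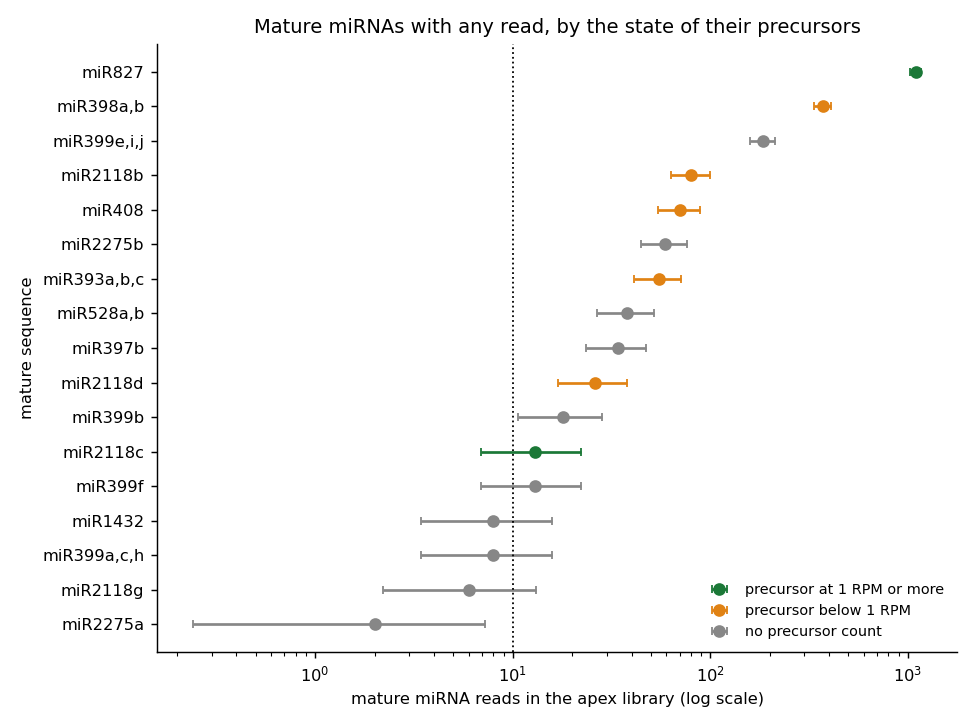
Mature miRNAs of the 12 families with any read. Points are reads in the apex library on a log axis with 95% exact Poisson intervals, the dotted line marks 10 reads, and colours give the RNA-seq state of the precursors. miR399e,i,j had 185 reads without a precursor count, whereas miR2118c, with precursor counts in all 8 libraries, had 13. The study lists far fewer reads of miR399e,i,j elsewhere, so the size of this contrast is not settled.

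The order of the mature reads did not follow that of the precursors within family miR2118. Its precursor with the most counts, *MIR2118c* with 178, gave the mature sequence with 13 reads (6.92 to 22.2). *MIR2118b*, with 15 counts, encodes both miR2118b with 80 reads and miR2118d with 26. In wild type, *MIR2118c* stood at 2.06 RPKM in P3 and 0.81 RPKM in the CZ, and *MIR2118b* at 0.72 RPKM in P3 and 0.0 RPKM in the CZ. The small RNA library covers parts of the apex outside these tissues, and whether miR2118b arises there was not tested.

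Some precursors hold several hairpins, which allows mature forms of a single transcript to be compared. Of the 106 reads from *MIR2118b*, miR2118b took 75.5% (95% exact interval 66.2% to 83.3%) and miR2118d the rest. Of the 61 reads from *MIR2275a*, which itself had no count, miR2275b took 59, or 96.7% (88.7% to 99.6%), and miR2275a only 2. These 2 sequences are 21 nt long, and whether they are the strand that triggers phasiRNAs was not tested. Both intervals exclude equal shares.

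Silence at both levels was seen for 10 loci. All 4 miR395 sequences had 0 reads, where 3 reads or 0.0291 RPM is the limit that a count of 0 allows, and their precursors had no count. miR482 was also without a read. The others were *MIR399d*, *MIR399g*, *MIR2118a*, *MIR2118e* and *MIR2275c*, which are loci of families that did give mature miRNA from another locus. The sequence of miR399d, with 0 reads, differs from that of miR399e,i,j, with 185, only by T14C. miR2275d was the reverse of the common pattern, with 12 precursor counts that fall within another gene and no mature read.

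The *dcl1-2* comparison asks whether weakened DICER-LIKE1 changes precursors or targets. Only members at 1 RPM or more could be tested, so 1 member entered the test in the CZ and 2 in P3. None was called by edgeR's quasi-likelihood test at an adjusted p under 0.05, none had an unadjusted p under 0.05, and DESeq2 called none. Among all genes 0.292% of 19897 were called in the CZ (0.116% higher and 0.176% lower in *dcl1-2*) and 4.5% of 22498 in P3 (3.34% higher and 1.16% lower). *MIR2118c* differed by 0.71 ± 0.71 (log2, SE) in the CZ (adjusted p = 0.803) and by -0.14 ± 0.70 in P3 (adjusted p = 0.943). *MIR827* differed by 0.16 ± 0.73 in P3 (adjusted p = 0.94), a direction that depended on 1 library, since without wild-type P3 replicate 2 the value was -0.36.

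The difference between the tissues in the effect of *dcl1-2* on *MIR2118c* was -0.84 ± 1.02 (P3 minus CZ, adjusted p = 0.742; -0.38 without *dcl1-2* CZ replicate 1 and -1.19 without replicate 2), where 2.36% of 23512 genes were called, 2.03% with a higher and 0.327% with a lower effect in P3. The opposite directions in the CZ and in P3 were therefore within the spread of the replicates. For *MIR827* no such difference can be given, because both genotypes were at 0 in the CZ.

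In wild type, *MIR827* was higher in P3 than in the CZ. Over both libraries it had 34 counts in P3 against 0 in the CZ, and edgeR's adjusted p was 0.00103. The pooled P3 level was 17.6-fold the limit of 3 counts per CZ library, a ratio that leaves out the error of the P3 level. The ratio depended on 1 library, being 9.9-fold without wild-type P3 replicate 1 and 24.5-fold without replicate 2. Within *dcl1-2*, 38 counts in P3 against 0 in the CZ gave a ratio of 16.3-fold to the same limit. *MIR827* entered the test by its P3 means alone, so only a call higher in P3 was possible. Its p-value is therefore no support beyond the counts. *MIR408*, with counts only in the CZ, stayed below 1 RPM and did not enter. *MIR2118c* was 1.12 ± 0.73 higher on the log2 scale in wild-type P3 than in wild-type CZ, which did not pass (adjusted p = 0.197). The background is wide here, since 62.3% of the 23512 genes tested were called between the tissues. Of all genes tested, 31.3% were called higher and 31.0% lower in P3. CZ libraries were single-end and P3 libraries paired-end, the P3 counts exceed the number of reads behind the authors' RPM by 1.30 to 1.34 times, and layout and tissue cannot be told apart. With total counts alone as the scale, the median gene was 0.24 higher in P3 (log2), against 0.0231 with TMM factors.

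Target genes of 7 of the families were followed in the same libraries. Of the 29 genes listed by the study as targets, 11 reached 1 RPM in some group, 6 had traces and 12 had no count. The lists behind miR393, miR395 and miR398 were expressed throughout, with 3 of 3 auxin receptor genes, 2 of 2 ATP sulfurylase genes and 3 of 3 Cu/Zn superoxide dismutase genes, and the 1 SPX-MFS gene listed for miR827 was expressed as well. By contrast, 7 of the 9 laccase genes listed for miR397, which polymerise lignin units, had no count and the other 2 only traces, and both phosphate transporter genes listed for miR399, *pht9* and *pht10*, had none. Of the 9 plantacyanin or blue copper protein genes listed for miR408, 2 were expressed.

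No target was called between *dcl1-2* and wild type. In the CZ, 10 targets were tested, none was called by edgeR or DESeq2 and none had an unadjusted p under 0.05. Their log2 fold changes ran from -0.32 to 0.28, with a median of -0.0235 against -0.0029 for all genes. In P3, 11 were tested, none was called by either tool and 2 had an unadjusted p under 0.05, with values from -0.0438 to 1.89 and a median of 0.178 against -0.0156 for all genes. Nor was any called for the difference between P3 and the CZ, where edgeR gave 1 of 11 an unadjusted p under 0.05 and DESeq2 called none.

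**Figure D5:**
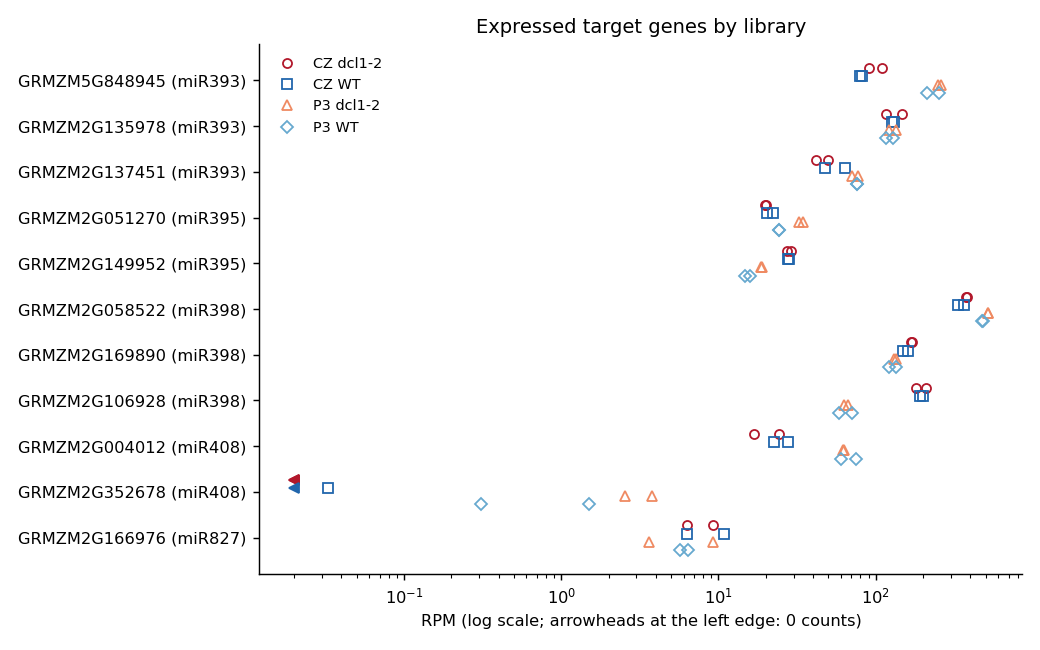
The 11 expressed target genes by library. RPM is on a log axis, each symbol is 1 library (2 per group), and arrowheads mark libraries with 0 counts. GRMZM2G352678 (miR408) is the only target with 0 counts in some libraries, and the symbols of *dcl1-2* and wild type lie close together for the 3 targets of miR398.

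The superoxide dismutase gene GRMZM2G058522, the most expressed target of the mature miRNA with 371 reads, stood at 380 and 374 RPM in *dcl1-2* CZ against 365 and 333 RPM in wild-type CZ. In P3 it stood at 514 and 516 RPM in *dcl1-2* against 480 and 473 RPM in wild type. Both *dcl1-2* libraries were above both wild-type libraries in each tissue, as were 22.8% of all genes in the CZ and 20.8% in P3, and the differences of 0.0787 ± 0.115 and 0.179 ± 0.121 (log2, SE) were not called.

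Among the targets of miR393, GRMZM5G848945 stood at 248 and 261 RPM in *dcl1-2* P3 against 252 and 211 RPM in wild-type P3. The ATP sulfurylase gene GRMZM2G149952 had 18.7 and 18.9 RPM in *dcl1-2* P3 against 15.9 and 14.7 RPM in wild-type P3, and the other, GRMZM2G051270, had 32.6 and 34.7 RPM against 24.3 and 24.1 RPM. In both genes the *dcl1-2* values lay above the wild-type values, as in 20.8% of all genes in P3, and neither was called. For GRMZM2G051270 the difference was 0.54 ± 0.20 (log2, SE), with an adjusted p of 0.149 by edgeR. Both sulfur assimilation genes were expressed in libraries without a count on any miR395 precursor.

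The plantacyanin gene GRMZM2G004012, listed for miR408, had 62.3 and 62.7 RPM in *dcl1-2* P3 against 74.8 and 59.8 RPM in wild-type P3. A second listed gene, GRMZM2G352678, had 2.53 and 3.78 RPM in *dcl1-2* P3 against 0.310 and 1.51 RPM in wild-type P3, a log2 difference of 1.89 ± 0.78 that was not called (adjusted p = 0.212) and ran from 1.17 without wild-type P3 replicate 1 to 3.33 without replicate 2. The SPX-MFS gene GRMZM2G166976, listed for miR827, had 3.63 and 9.30 RPM in *dcl1-2* P3 against 5.69 and 6.38 RPM in wild-type P3, where the *dcl1-2* values lie outside the wild-type ones on both sides.

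Between the tissues in wild type, 6 of the 11 tested targets (54.5%) were called, 3 higher and 3 lower in P3, which is near the 62.3% of all genes. GRMZM2G352678, counted among them, entered the test by its *dcl1-2* P3 mean alone, so only a call higher in P3 was possible for it. Its call is therefore no support beyond the counts. Higher in P3 were GRMZM5G848945 (log2 fold change 1.30 ± 0.15) and both genes listed for miR408, GRMZM2G004012 (1.22 ± 0.21) and GRMZM2G352678, which had 1 count in the wild-type CZ libraries and lost its call without wild-type P3 replicate 2 (adjusted p = 0.106). Lower in P3 were the superoxide dismutase genes GRMZM2G106928 (-1.82 ± 0.14) and GRMZM2G169890 (-0.49 ± 0.13) and the ATP sulfurylase gene GRMZM2G149952 (-1.08 ± 0.20). With total counts alone as the scale, GRMZM2G169890 was not called (adjusted p = 0.0705). The SPX-MFS gene, whose miRNA precursor *MIR827* was found only in P3, differed by -0.72 ± 0.45 between wild-type P3 and wild-type CZ and was not called (adjusted p = 0.18).

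Genes of the phasiRNA and nutrient pathways were taken by symbol from the name table. It held 5 of 16 phasiRNA symbols, 11 of 25 for phosphate, 1 of 8 for sulfate and 4 of 21 for copper. This gave 23 distinct gene models, some of which share a name. Among them *sod4* (GRMZM2G169890), *sod4a* (GRMZM2G058522), *pht9* and *pht10* are targets counted above as well. Of these, 9 could be tested in the CZ and 12 in P3. None was called in either tissue by edgeR between *dcl1-2* and wild type, with 0 and 1 of them at an unadjusted p under 0.05, and DESeq2 called 0 in the CZ and 1 in P3. That gene was the superoxide dismutase gene *sod2* (GRMZM2G025992), which is not a listed miR398 target, at 168 and 173 RPM in *dcl1-2* P3 against 127 and 133 RPM in wild-type P3 (0.46 ± 0.13, log2, SE, edgeR adjusted p = 0.0627). edgeR also called it without wild-type P3 replicate 1 (adjusted p = 0.018) or replicate 2 (0.0278), and called *lbl1* (GRMZM2G020187) in the CZ without wild-type CZ replicate 2 (0.46, adjusted p = 0.00951).

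Of the phasiRNA genes, 6 of 7 models were expressed. They include *lbl1* (GRMZM2G020187), needed for trans-acting siRNAs, *rdr6*, a polymerase that makes the RNA double-stranded, and 3 models named *dcl4*, the Dicer that cuts it. The exception was *ms23* (GRMZM2G021276), a regulator of the anther tapetum, with no count, while *ms32* (GRMZM2G163233), of the same pathway, had 19.3 to 40.3 RPM over the 8 libraries. Between wild-type P3 and wild-type CZ, 4 of 6 tested models were called. *lbl1* was lower in P3 (-1.39 ± 0.16), and *ms32* (0.60 ± 0.20) and the *dcl4* models GRMZM2G050882 (3.17 ± 0.53) and GRMZM2G024466 were higher. The 3 *dcl4* models match 1 gene in the name table. The *dcl4* model with the most counts, GRMZM2G160473, differed by 0.53 ± 0.24 and was not called (edgeR adjusted p = 0.0667). DESeq2 called it (0.61, adjusted p = 0.0263), as did edgeR with other normalizations. GRMZM2G024466 had 0 and 4 counts in wild-type CZ, so that its fitted log2 value of 5.19 is loose, at 4.16 without wild-type CZ replicate 1 and 8.67 without replicate 2. The call on *ms32* was lost without wild-type CZ replicate 2 or wild-type P3 replicate 2, with adjusted p-values of 0.0726 and 0.139. *lbl1* stood at 385 and 377 RPM in *dcl1-2* P3 against 367 and 347 RPM in wild-type P3.

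Phosphate genes were mostly silent. Of 12 models, 7 had no count, *pht9* and *pht10* included, 3 had traces and 2 were expressed. *phr1* (GRMZM2G006477), a regulator of the phosphate starvation response, stood at 32.0 and 29.6 RPM in *dcl1-2* P3 against 24.1 and 39.6 RPM in wild-type P3, and was lower in wild-type P3 than in wild-type CZ (-1.31 ± 0.21). The transporter gene *pht7* (GRMZM2G112377) had 1.76 and 0.678 RPM in *dcl1-2* P3 against 1.66 and 1.86 RPM in wild-type P3. The 1 sulfate transporter gene matched, *st1* (GRMZM2G098494), was higher in wild-type P3, at 32.7 and 32.7 RPM, than in wild-type CZ, at 8.97 and 9.50 RPM (1.61 ± 0.22). In total 8 of the 12 tested pathway models (66.7%), *sod4* among them, were called between the tissues, again near the 62.3% of all genes. Of these, *pht7* and the *dcl4* models GRMZM2G050882 and GRMZM2G024466 entered the test by their P3 means alone. For them only a call higher in P3 was possible, so it is no support beyond the counts.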

How the data were processed

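The authors trimmed the RNA-seq reads with Trimmomatic, aligned them with TopHat, per the labels to B73 RefGen_v3, and deposited raw HTSeq counts, which take only reads with a unique position, on gene models that included curated precursors. Reads from near-identical loci therefore drop out of these counts. The deposited table also holds the authors' RPM, a depth-normalized signal whose columns do not sum to the same total, which was used only as an alternative. For small RNA the authors trimmed reads with cutadapt 1.13, aligned them with Bowtie 1.1.2 without mismatches and deposited counts and RPM of mature miRNAs, the RPM being relative to mapped reads. Positions are those of the count table. They differ from another listing by the study, so their build is not certain. The count table has 45498 rows, and 1 blank count was read as 0.

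RPM here is the count divided by the library total times 1000000, and RPKM divides by model length. The main test was edgeR's quasi-likelihood test on the counts with TMM factors (edgeR 4.0.16 and limma 3.58.1 in R 4.3.3), fitted to the 4 libraries of a tissue, or to all 8 libraries in 4 groups for P3 against CZ in wild type and for the difference between tissues. A gene entered if its mean reached 1 RPM in some group, and Benjamini-Hochberg adjustment ran over all genes that entered. Each standard error is the size of the log2 fold change over the root of its F statistic. Alternatives were DESeq2 1.42.0, other normalizations and filters, a replicate block, all 8 libraries in 1 fit, a fold cutoff, other minimum levels and each library left out. The edgeR script was tested on simulated data. Replicates are biological by the study's methods. Identical mature sequences were merged, and precursors of each sequence are those the study lists. Python 3.11.15 with scipy 1.17.1, pandas 2.3.3, numpy 2.4.6 and matplotlib 3.10.9 did the rest.

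The members and gene lists were chosen with earlier results of these data known. Named were all members, with the expressed ones and those with at least 10 mature reads described singly, the most expressed target of each family, targets called in a fit, up to 4 called genes of each pathway list, *DCL1* and gene models that overlap a member. *ms23*, *rdr6*, *sod2*, *scr1*, *scr1b*, *shr1*, GRMZM2G051270 and *sut1* were named in addition, after their values were seen. Target genes are from the study's list, and symbols from the RefSeq gene table of Zm-B73-REFERENCE-NAM-5.0, of which no coordinate was used.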

Additional observations from a re-analysis of the deposited data

Results flagged for a closer look

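Among the genes whose values were computed, the effect of *dcl1-2* differed between the tissues for 2 of the 4 vascular and ground tissue markers, and for neither of the 2 members tested nor any of the 11 targets tested. Of all 23512 genes tested for this difference, 2.36% were called. The other 107 precursors were not followed for it. For *scr1* (GRMZM2G131516) the log2 effect was 1.68 ± 0.22 (SE) higher in P3 than in the CZ (edgeR adjusted p = 0.00226), with 340 and 443 RPM in *dcl1-2* P3 against 180 and 197 RPM in wild-type P3, and 58.9 and 56.6 RPM in *dcl1-2* CZ against 93.3 and 72.2 RPM in wild-type CZ. For *shr1* (GRMZM2G132794) the fitted difference was 7.17 ± 1.58 (adjusted p = 0.0383), a size that depends on the prior count because both *dcl1-2* CZ libraries had 0 counts and wild-type CZ 1.35 and 0.188 RPM. Of the other 2 markers, *scr1b* (GRMZM2G015080) differed by 0.10 ± 0.41 (adjusted p = 0.947) and *sut1* had 1 count.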

How the results depend on the processing

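Few of the 34 members could be called at all. In the CZ 1 was tested, and in P3 and for the difference between tissues 2 were. Without a filter these numbers were 4, 6 and 7. Settings tried were DESeq2, other normalizations, other filters, a fold cutoff and all 8 libraries in 1 model. In none was a tested member called between *dcl1-2* and wild type in either tissue or for that difference. Without *dcl1-2* CZ replicate 1 no member was tested in the CZ, so that fit cannot bear on members there. With another library left out, the log2 change of *MIR2118c* was 0.55 to 1.05 in the CZ and -0.188 to -0.0947 in P3. Between the tissues, *MIR827* was called in every fit with all libraries. Under filterByExpr 2 members were called between the tissues, the second being *MIR2118b* (adjusted p = 0.0343). At 10 counts in 1 library, 4 precursors counted as expressed, as *MIR408* and *MIR398b* were added. Detected mature miRNAs without a measured precursor fell to 6 where a precursor with no count at all was required, and numbered 8 with 30 reads as the minimum. The number of silent precursors was 27 whichever library was left out, and that of expressed precursors 2. Leaving out 1 library gave 0 to 1 called targets in P3, GRMZM5G848945 being called without wild-type P3 replicate 1 (adjusted p = 0.0285). It gave 0 to 1 called pathway genes in the CZ, *lbl1* without wild-type CZ replicate 2, and 0 to 1 in P3, *sod2* without either wild-type library. *sod2* was also the 1 pathway gene called in P3 by DESeq2 and without a filter. The log2 change of *MIR827* in P3 was -0.36 without wild-type P3 replicate 2 and 1.01 without replicate 1. *DCL1* in P3 had an adjusted p of 0.0501 and 0.0522 without *dcl1-2* P3 replicate 1 and 2. Between the tissues, GRMZM2G352678 lost its call without wild-type P3 replicate 2 (adjusted p = 0.106), GRMZM2G169890 with total counts alone (0.0705), *ms32* without wild-type CZ replicate 2 (0.0726) or wild-type P3 replicate 2 (0.139), and *pht7* without wild-type CZ replicate 2 (0.0659) or wild-type P3 replicate 1 (0.0616) or 2 (0.0592). The cause was not tested.

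Counts over all genes moved more. In the CZ, 58 genes were called, against 345 with DESeq2, 697 without a filter, 243 with all 8 libraries and 42 to 674 with a library left out. In P3, 1012 were called, against 1686 without a filter, 432 with all 8 libraries, 622 with the fold cutoff and 533 to 1847 with a library left out. For the difference between tissues 555 were called, against 1022 with DESeq2, 1589 without a filter and 79 to 911 with a library left out. Same-numbered deviations correlated at 0.0936 in the CZ and 0.00364 in P3. With 2 libraries per group, this cannot settle whether same-numbered samples were paired. With a replicate block, 308 genes were called in the CZ and 1610 in P3, 500 for the difference and 14384 between tissues, and 0 members in each save 1 between tissues. At this depth a precursor with no count may still be present at up to 0.348 RPM in P3 and 0.121 RPM in the CZ. It may be present at more where its reads could not be counted.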
